A study of Homo sapiens with 15 samples.

Results

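Metallothioneins and the genes of zinc handling were followed in H9, a long-established line of human embryonic stem cells, exposed to airborne particles while they differentiated toward bone. The set holds 9 genes of the 60675 listed in the deposited tables, chosen by matching the Ensembl gene identifier to 9 symbols: 6 metallothioneins (MT2A, MT1E, MT1F, MT1G, MT1H and MT1X), the zinc sensor MTF1, the zinc exporter SLC30A1 and the zinc importer SLC39A10. All 9 passed the filter on low counts and were among the 19012 genes tested. Wild-type cultures were collected on day 7, in 5 groups of 3 libraries of polyadenylated RNA. The control (UNT) received the vehicle, DMSO at 0.1%. The other groups received fine particulate matter (FPM) at 0.00062 µg/mL (FPM_IC25) or 1.4 µg/mL (FPM_IC50), or a NIST standard reference material (SRM) at 0.003 µg/mL (SRM_IC25) or 5.9 µg/mL (SRM_IC50), from day 0 onward; per the labels these are protein-based inhibitory concentrations, IC25 for 25% and IC50 for 50%. All groups shared a serum-containing differentiation medium for 5 days, followed by vitamin D3, β-glycerophosphate and ascorbic acid, and all came from 1 cell line. The FPM and SRM doses of 1 inhibitory level differ in mass. The study asked how such exposure changes early osteogenic differentiation.

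Metallothioneins are small, cysteine-rich proteins that bind zinc, copper and cadmium and buffer the free metal in the cell. MTF1 is a zinc finger protein that senses free zinc and binds metal response elements in the promoters of metallothionein genes and of SLC30A1, whose product moves zinc out of the cytosol. SLC39A10 belongs to the ZIP family, which carries zinc into the cytosol, and metallothionein genes are commonly read as sensors of metal load in cells exposed to particles.

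The 6 metallothionein genes lie within 1 cluster on chromosome 16 (GRCh38, GENCODE release 29). They are MT2A (56608199 to 56609497), MT1E (56625475 to 56627112), MT1F (56657694 to 56660698), MT1G (56666731 to 56668065), MT1H (56669814 to 56671129) and MT1X (56682424 to 56684196); MT1G is on the minus strand and the other 5 are on the plus strand. MTF1 (37809567 to 37859620) and SLC30A1 (211571568 to 211578742) lie on the minus strand of chromosome 1, and SLC39A10 (195575977 to 195737702) lies on the plus strand of chromosome 2. No exon of the 9 genes overlapped an exon of a gene on the other strand. The metallothionein genes are near-identical copies, so reads could be split between them, and the handling of reads that match several places is not given in the sources used here.

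The RefSeq promoter table (GRCh38.p14) held 6 of the 9 genes by symbol: MT2A, MT1H, MT1X, MTF1, SLC30A1 and SLC39A10, the last with 2 starts. The metal response element was searched as TGCACNC and TGCGCNC on both strands over the 250 bases before each start; overlapping matches were counted. MT1H had 8 matches, MT2A 7, MT1X 4 and SLC30A1 1, while the windows of MTF1 and of both SLC39A10 starts had 0. By GENCODE, the MT2A window lies inside the first exon of a transcript that starts farther upstream, and both SLC39A10 windows lie inside the gene body, so these RefSeq windows are not upstream of every start of their gene. The SLC30A1 window (211579162 to 211579411) does not reach the GENCODE start of this minus-strand gene, at 211578742. The bases between them were not searched, so its 1 match covers the RefSeq window only. Of all 35116 promoters in the table, 24.83% held at least 1 match and 0.37% held at least 4. The windows of a metallothionein with many matches, a metallothionein with fewer and the exporter with 1 are shown for comparison, 5′ to 3′ on the strand of the gene, with matches on either strand in capitals. The MT1X stretch stops at the first transcribed base of GENCODE and still holds all 4 of its matches.
MT1H (chr16:56669564-56669813, plus strand): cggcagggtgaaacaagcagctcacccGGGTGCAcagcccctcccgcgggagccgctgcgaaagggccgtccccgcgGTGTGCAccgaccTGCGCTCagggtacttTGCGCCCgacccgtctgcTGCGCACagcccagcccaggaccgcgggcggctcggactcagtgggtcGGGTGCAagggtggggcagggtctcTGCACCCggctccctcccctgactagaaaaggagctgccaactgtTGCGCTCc
MT1X (chr16:56682220-56682423, plus strand): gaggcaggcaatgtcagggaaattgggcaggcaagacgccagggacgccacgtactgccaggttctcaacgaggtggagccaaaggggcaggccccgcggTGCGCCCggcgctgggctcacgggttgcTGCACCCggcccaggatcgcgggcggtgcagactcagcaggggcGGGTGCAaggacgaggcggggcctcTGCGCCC
SLC30A1 (chr1:211579162-211579411, minus strand): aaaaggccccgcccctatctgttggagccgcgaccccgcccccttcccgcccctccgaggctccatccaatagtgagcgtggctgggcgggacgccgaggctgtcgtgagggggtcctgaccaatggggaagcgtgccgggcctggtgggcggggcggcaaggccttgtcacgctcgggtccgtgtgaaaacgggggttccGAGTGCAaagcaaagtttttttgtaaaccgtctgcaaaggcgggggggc
A capital run that reads as the reverse complement, such as GGGTGCA in MT1H and MT1X or GAGTGCA in SLC30A1, is a match on the other strand. A match is a description of these letters and no measure of MTF1 binding.

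**Figure D1:**
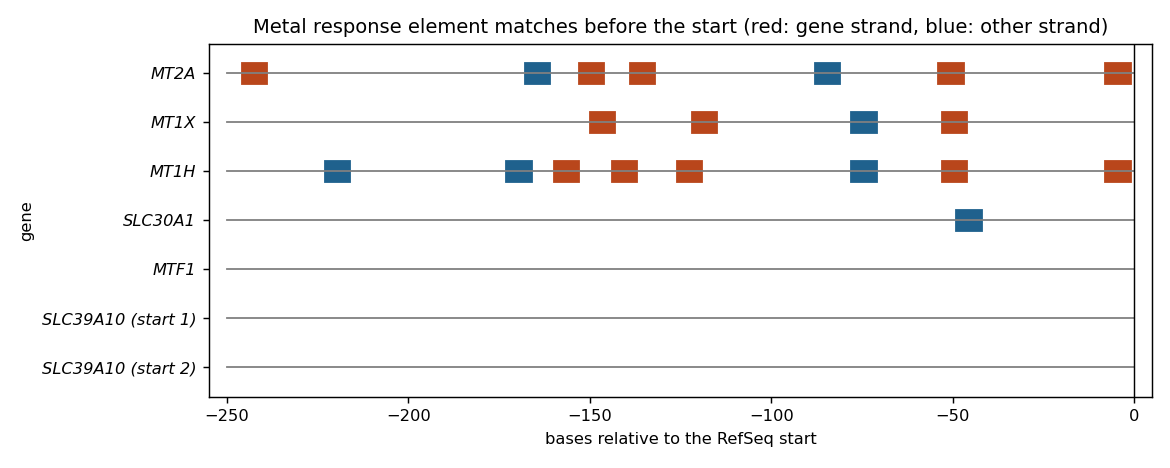
Position of each metal response element match in the 250 bases before the RefSeq start (x axis, bases; 1 line per promoter), in red on the strand of the gene and in blue on the other strand. MT1H has 8 matches, MT2A 7, MT1X 4 and SLC30A1 1, and no match is drawn for MTF1 or for either start of SLC39A10.

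Compared per length, as FPKM (fragments scaled by gene length and library size, deposited by the authors), SLC39A10 was the most abundant member, with a median of 17.0 over the 15 libraries (12.5 to 19.7). MT2A followed with a median of 7.81 FPKM (5.03 to 12.4), SLC30A1 with 6.80 (5.24 to 7.95) and MT1E with 4.73 (3.79 to 7.74). The medians of MT1F, MTF1, MT1G and MT1X were 2.2, 1.91, 1.23 and 1.23 FPKM. MT1H was the least abundant, at 0.63 FPKM (0.156 to 1.38) and only 2 to 25 counts per library. MT1G had between 1 and 68 counts and MT1X between 7 and 116, so single libraries weigh heavily on these 3 genes. The level of MT2A was above that of 71.0% of tested genes, and that of MT1H above 17.8%. From here on, levels are CPM (counts scaled to a common library size, with TMM factors) and changes are log2 fold changes from edgeR's quasi-likelihood test with their standard error (SE); a gene is called where the p adjusted by Benjamini-Hochberg over all 19012 genes is under 0.05.

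A single test over all 5 groups called 7 of the 9 members, all 6 metallothioneins and SLC30A1, against a background of 40.8% of all tested genes. The adjusted p of edgeR's quasi-likelihood test was 0.0015 for SLC30A1, 0.00387 for MT1X and 0.0127 for MT1G, and between 0.0185 and 0.0315 for MT1H, MT2A, MT1E and MT1F. MTF1 (edgeR adjusted p 0.692) and SLC39A10 (0.264) were not called. The count was 4 without FPM_IC25 replicate 2 or 3 or SRM_IC25 replicate 2 or 3.

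The SRM_IC50 cultures held the highest group mean of 5 of the 6 metallothioneins, and the metallothioneins with the fewest counts differed from UNT by the largest fold. MT1H, 1 of the low-abundance isoforms, was at 0.30, 0.12 and 0.24 CPM in UNT and at 0.58, 0.46 and 1.05 CPM at SRM_IC50. The UNT value of 0.12 CPM is 2 counts, below the floor of 3 counts. All 3 exposed libraries lay above all 3 controls, and MT1H rose by 1.51 log2 units (SE 0.47, with an adjusted p of 0.0363 by edgeR). It was the only member called at SRM_IC50 against UNT, where 17.6% of all tested genes were called and 7.95% were called higher. It rests on 2 to 25 counts per library: the adjusted p was 0.143 without UNT replicate 2, 0.0799 without UNT replicate 3, 0.106 without SRM_IC50 replicate 3, 0.0651 without SRM_IC50 replicate 1 and 0.0501 without SRM_IC25 replicate 2, and DESeq2 gave 0.0534. With no expression filter edgeR gave an adjusted p of 0.0751.

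MT1X, an isoform found in many tissues, was at 1.64, 2.46 and 2.86 CPM in UNT and at 3.62, 3.10 and 6.76 CPM at SRM_IC50. The groups did not overlap, and replicate 3 at SRM_IC50 stood far above the other libraries. The log2 fold change against UNT was 0.91 (SE 0.31, edgeR adjusted p 0.055), just outside the threshold; it passed without FPM_IC25 replicate 1 (0.0457), FPM_IC50 replicate 1 (0.0492) or SRM_IC50 replicate 2 (0.034), and under DESeq2 (0.0295). At SRM_IC25 MT1X was at 2.27, 2.34 and 2.23 CPM, inside the UNT range. Between the SRM doses it rose by 0.92 (SE 0.30, edgeR adjusted p 0.035), and all 3 libraries of the higher dose lay above those of the lower. That call was lost without SRM_IC50 replicate 3 (log2 fold change 0.56, adjusted p 0.152) and without SRM_IC25 replicate 1, 2 or 3 (0.0715, 0.0969 and 0.0876). With all libraries it was lost on thinning to the shallowest depth (edgeR adjusted p 0.406) and with only the 2 groups compared (0.0513). It was also lost with limma on log2(FPKM + 0.1) (0.0853) and on log2(FPKM + 1) without a filter (0.105).

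MT1G, the gene on the opposite strand of the cluster, was at 0.70, 1.35 and 1.46 CPM in UNT and at 2.03, 1.68 and 2.46 CPM at SRM_IC50. These libraries did not overlap, with a log2 fold change of 0.81 (SE 0.36, edgeR adjusted p 0.151). At SRM_IC25 it was at 0.91, 1.37 and 0.90 CPM, below every library of the higher dose. The dose difference of 0.84 (SE 0.35) had an adjusted p of 0.0874 and was 0.0499 without FPM_IC25 replicate 1.

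MT1E was at 3.98, 4.81 and 5.73 CPM in UNT and at 6.50, 6.05 and 8.60 CPM at SRM_IC50. Every exposed library lay above the controls, with a log2 fold change of 0.53 (SE 0.18, edgeR adjusted p 0.0613); the adjusted p was 0.0375 without UNT replicate 3, 0.0416 without SRM_IC25 replicate 1 and 0.0407 under DESeq2. MT1F was at 3.13, 4.81 and 4.39 CPM in UNT and at 5.18, 4.93 and 6.85 CPM at SRM_IC50, a log2 fold change of 0.45 (SE 0.26, edgeR adjusted p 0.283). In MT1F the lowest exposed library was close to the highest control.

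MT2A, the major isoform of most human tissues, was at 7.50, 9.45 and 11.3 CPM in UNT. It was at 9.98, 15.0 and 16.4 CPM at SRM_IC25 and at 11.6, 10.1 and 14.9 CPM at SRM_IC50, so that its highest group mean was at the lower dose. Both exposed groups overlapped UNT, with log2 fold changes of 0.57 (SE 0.20, edgeR adjusted p 0.103) and 0.36 (SE 0.20, 0.261). The DESeq2 adjusted p for the lower dose was 0.0486.

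At SRM_IC50, 6 of the 9 members did not overlap UNT and lay above it (5 metallothioneins and SLC30A1), where 14.1% of all tested genes did so. The median log2 fold change was 0.67 over the 6 metallothioneins and 0 over all tested genes. At SRM_IC25 the median over the metallothioneins was 0.34, with 4 above and 2 below UNT, and none was called by edgeR, while DESeq2 called MT2A; an unadjusted p under 0.05 was reached by 4 members (MT2A, MT1E, MT1H and SLC30A1). In the same comparison 1 of the 9 members, SLC30A1, was called, lower, where 4.38% of all tested genes were called and 3.39% were called lower.

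**Figure D2:**
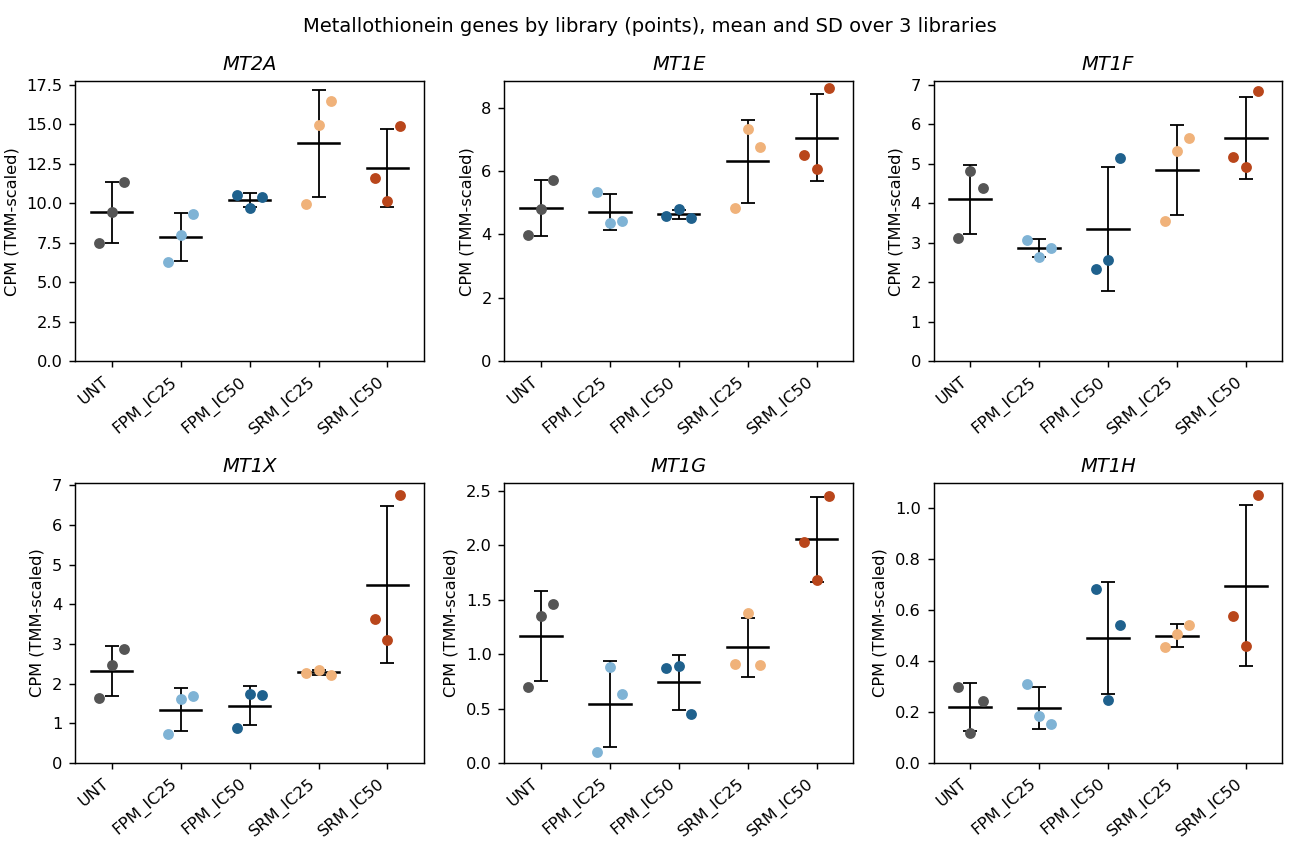
CPM of each metallothionein gene (y axis, from 0, a scale of its own per gene) by group, with 1 point per library and the mean ± SD of 3 libraries in black. The SRM_IC50 points of MT1E, MT1F, MT1X, MT1G and MT1H all lie above the UNT points, while those of MT2A overlap them.

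FPM values differed from those of SRM. The 6 FPM libraries also had 0.942 to 1.5% of counts in antisense genes, against 0.274 to 0.319% in the other 9. Particle and this library difference cannot be told apart in any comparison of FPM with UNT or SRM. In FPM_IC25 libraries MT2A was at 6.27, 8.02 and 9.33 CPM, MT1F at 3.08, 2.64 and 2.87 CPM and MT1X at 0.72, 1.62 and 1.68 CPM. All 6 metallothioneins had a log2 fold change below 0 against UNT, with a median of -0.41, but MT1F was the only one with groups that did not overlap, the FPM libraries being below. With SLC30A1 it made 2 of the 9 members with no overlap below UNT, where 13.4% of all tested genes did so. MT1G was at 0.10, 0.88 and 0.64 CPM, the first value being 1 count in the shallowest library, which is below the floor of 3 counts; its log2 fold change was -0.88 (SE 0.40, edgeR adjusted p 0.183). At FPM_IC25 edgeR called 0 of the 9 members, where 14.2% of all tested genes were called. At FPM_IC50 it called 0, where 13.6% were. DESeq2 and limma called 0 in both, and an unadjusted p under 0.05 was reached by 1 member (MT1G) at FPM_IC25 and by 0 at FPM_IC50.

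At FPM_IC50 MT2A was at 10.5, 9.70 and 10.4 CPM and MT1E at 4.57, 4.80 and 4.52 CPM, both inside the UNT range. MT1F was at 2.33, 2.57 and 5.15 CPM and MT1G at 0.88, 0.89 and 0.45 CPM. MT1H was at 0.68, 0.25 and 0.54 CPM, with a log2 fold change of 0.99 against UNT (SE 0.54, edgeR adjusted p 0.285), the only metallothionein besides MT2A with a value above 0. Between the FPM doses 0 of the 9 members were called, where 0.0105% of all tested genes were; MT1H (log2 fold change 1.27, SE 0.52) was the only member with an unadjusted p under 0.05, and DESeq2 and limma called 0.

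The particles were compared at matched inhibitory levels, and these comparisons carry the antisense difference of the FPM libraries as well. At the IC50 level 4 of the 9 members were called, all lower in FPM than in SRM, where 39.3% of all tested genes were called and 16.2% were called lower in FPM; the count of calls in either direction is near that background. MT1X was at 0.88, 1.73 and 1.72 CPM at FPM_IC50, below every SRM_IC50 library, and was lower by a log2 fold change of -1.54 (SE 0.34, edgeR adjusted p 0.0018). MT1G was likewise below every SRM_IC50 library, with -1.41 (SE 0.40, edgeR adjusted p 0.011). Both calls were kept when any 1 of the 15 libraries was left out; that of MT1X was lost on thinning to the depth of the shallowest library (adjusted p 0.0564) and that of MT1G with limma on log2(FPKM + 0.1) (0.0507).

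MT1E was lower at FPM_IC50 than at SRM_IC50 by -0.58 log2 units (SE 0.19, edgeR adjusted p 0.0236), with no overlap of the libraries. With MT1X and MT1G it made 3 of the 9 members with no overlap below SRM_IC50, where 20.2% of all tested genes did so. MT1F was lower by -0.76 (SE 0.27, edgeR adjusted p 0.0356), with FPM_IC50 replicate 3, at 5.15 CPM, inside the SRM_IC50 range. The MT1E call was lost without FPM_IC50 replicate 1, 2 or 3 (adjusted p 0.0564, 0.0548 and 0.0611) or SRM_IC50 replicate 3 (0.0841). The MT1F call was lost without FPM_IC50 replicate 1 or 2 (0.13 and 0.179) or SRM_IC50 replicate 3 (0.0919). MT2A (-0.25, SE 0.20) and MT1H (-0.53, SE 0.44) were not called.

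At the IC25 level 1 of the 9 members was called, lower in FPM, where 10.5% of all tested genes were called, near the members' share, and 0.605% were called lower in FPM. MT2A was lower in FPM by -0.78 log2 units (SE 0.20, edgeR adjusted p 0.0127), and every FPM_IC25 library lay below every SRM_IC25 library. The adjusted p was 0.0626 without FPM_IC25 replicate 1, 0.0714 without SRM_IC25 replicate 2 and 0.0813 without SRM_IC25 replicate 3. Together 5 metallothioneins (all except MT1E) lay below SRM_IC25 with no overlap, where 9.99% of all tested genes did so. MT1F (-0.79, SE 0.26, edgeR adjusted p 0.0681) and MT1H (-1.44, SE 0.46, 0.0584) were just outside the threshold; MT1F passed without FPM_IC50 replicate 3 (0.0179), SRM_IC25 replicate 1 (0.026) or SRM_IC50 replicate 3 (0.0478), and MT1H without FPM_IC50 replicate 2 (0.0444) or SRM_IC50 replicate 3 (0.0426). MT1E (-0.47, SE 0.18) had an adjusted p of 0.144 by edgeR's test and of 0.0364 without SRM_IC25 replicate 1. These comparisons share libraries with those against UNT, so their values are given side by side and are not separate evidence.

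The summed level of the 6 metallothioneins was 22.1 ± 4.46 CPM in UNT (SD, n = 3), 17.5 ± 1.63 at FPM_IC25, 20.9 ± 1.66 at FPM_IC50, 28.8 ± 5.89 at SRM_IC25 and 32.2 ± 7.52 at SRM_IC50. By library it was 17.2, 23.0 and 26.01 CPM in UNT, 22, 31.9 and 32.5 CPM at SRM_IC25 and 29.5, 26.3 and 40.7 CPM at SRM_IC50. All SRM_IC50 libraries lay above UNT, and 1 SRM_IC25 library lay within it. The makeup of the pool also differed in value: MT1G, MT1H and MT1X took 16.7% ± 1.21 of metallothionein counts in UNT (SD, n = 3), 13.7% ± 2.62 at SRM_IC25 and 22.1% ± 2.84 at SRM_IC50. By library this share was 15.3, 17.1 and 17.6% in UNT and 21.1, 19.9 and 25.3% at SRM_IC50. MT2A and MT1E took 64.7% ± 2.42 in UNT, 71.8% ± 1.76 at FPM_IC25, 71.4% ± 5.37 at FPM_IC50 and 60.2% ± 2.02 at SRM_IC50. With 3 libraries against 3, no exact permutation test of such a sum can reach a p under 0.05, and none was made.

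**Figure D3:**
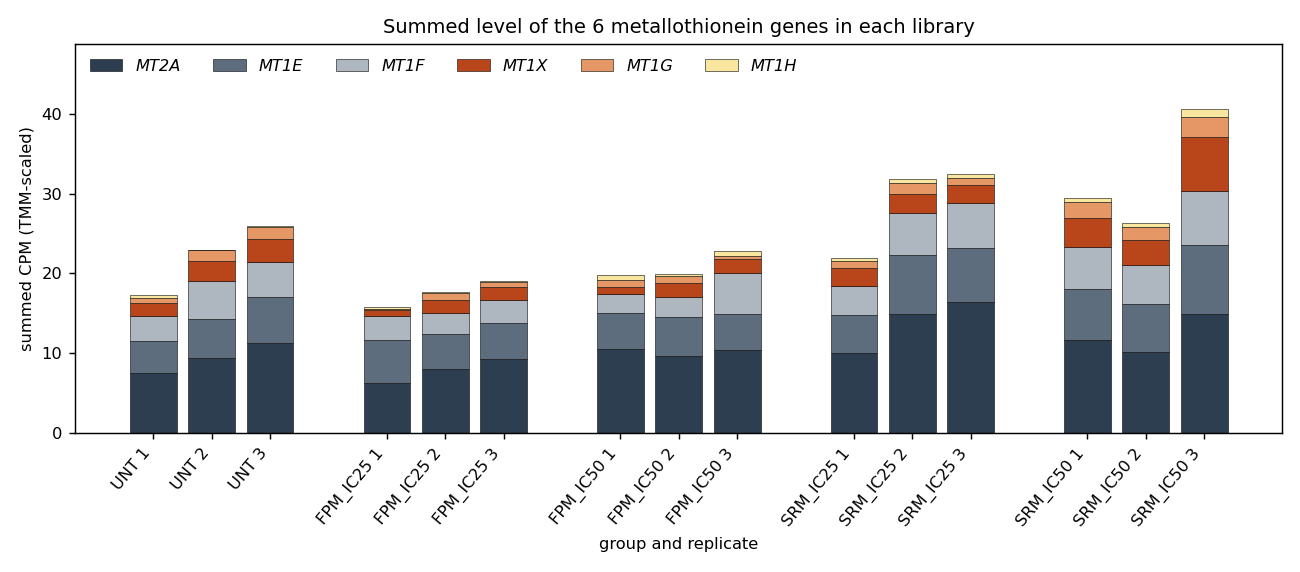
Summed CPM of the 6 metallothionein genes (y axis, from 0) in each of the 15 libraries (x axis, group and replicate), stacked by gene. The 3 SRM_IC50 libraries reach 26.3 to 40.7 CPM against 17.2 to 26.01 CPM in UNT, and the MT1X layer is thickest in SRM_IC50 replicate 3.

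The other functional metallothioneins (MT1A, MT1B, MT1M, MT1HL1, MT3 and MT4) had at most 8 counts in any library and none was tested. MT1M was the most counted of them, with 33 counts over the 15 libraries, and MT1B had 0 in each. Of 10 listed metallothionein pseudogenes and antisense transcripts, 9 were in the files and none was tested. Adding all of them changed the group means of the summed metallothionein level to 22.3 CPM in UNT and 32.6 CPM at SRM_IC50.

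MTF1, the sensor that acts on the metallothionein genes, was called in no comparison. It was at 16.6, 13.4 and 13.6 CPM in UNT and at 17.8, 15.3 and 14.6 CPM at SRM_IC50, with a log2 fold change of 0.13 (95% interval -0.17 to 0.44). At FPM_IC50 it was at 18.2, 17.6 and 13.5 CPM, with a log2 fold change of 0.18 (95% interval -0.14 to 0.49). Its groups overlapped in all 8 pairwise comparisons. The lowest group mean was 88.1% of the highest.

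SLC30A1, the plasma membrane zinc exporter, moved with the SRM dose. It was at 30.2, 31.5 and 29.3 CPM at SRM_IC25, below every other library of the series, and at 42.1, 42.9 and 46.0 CPM at SRM_IC50. UNT, at 39.6, 41.5 and 38.6 CPM, lay between them without overlapping either. Between the SRM doses SLC30A1 rose by 0.52 log2 units (SE 0.088, 1.43 times, edgeR adjusted p 0.000356). With MT1X it made 2 called members, both higher, where 26.9% of all tested genes were called and 13.7% were called higher. The call was kept without any 1 of the 15 libraries and under 13 of 13 other analyses, with a log2 fold change of 0.37 after GC correction.

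At SRM_IC25 SLC30A1 fell by 0.39 against UNT (SE 0.088, edgeR adjusted p 0.0264). That call was lost without UNT replicate 2 (adjusted p 0.17) or 3 (0.0667), SRM_IC25 replicate 1, 2 or 3 (0.058, 0.098 and 0.126) or SRM_IC50 replicate 2 (0.0502), and with a correction for GC content, where the log2 fold change was -0.14 (adjusted p 0.777). The longest SLC30A1 transcript is 38.0% GC. At SRM_IC50 the difference from UNT was 0.13 (SE 0.087, edgeR adjusted p 0.393). FPM_IC25 libraries were at 35.6, 36.3 and 33.9 CPM, all below UNT (-0.18, SE 0.088, edgeR adjusted p 0.213), and FPM_IC50 libraries, at 33.8, 40.9 and 42.5 CPM, spanned the UNT range.

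The dose step of FPM was compared with the dose step of SRM in 1 interaction test, which called 0 of the 9 members, where 14.6% of all tested genes were called. SLC30A1 was nearest, with a difference of -0.37 (SE 0.12, edgeR adjusted p 0.0592), meaning a smaller step in FPM; it was 0.0463 without FPM_IC50 replicate 3 and 0.0313 with DESeq2, which called 1 member, as did limma on log2(FPKM + 1). It was also the 1 member with an unadjusted p under 0.05. MT1X had a difference of -0.90 (SE 0.48, edgeR adjusted p 0.241) and MT2A of 0.53 (SE 0.28, 0.245), with 95% intervals of -1.91 to 0.11 and -0.07 to 1.13.

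SLC39A10, the importer and the most abundant member, was at 136, 116 and 96.3 CPM in UNT. It was at 110, 89.3 and 90.0 CPM at SRM_IC25 and at 118, 126 and 91.8 CPM at SRM_IC50. The groups overlapped in all 8 pairwise comparisons and edgeR called none of them; the value nearest to a call was SRM_IC25 against UNT (-0.27, SE 0.13, 95% interval -0.55 to 0.01, edgeR adjusted p 0.235).

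**Figure D4:**
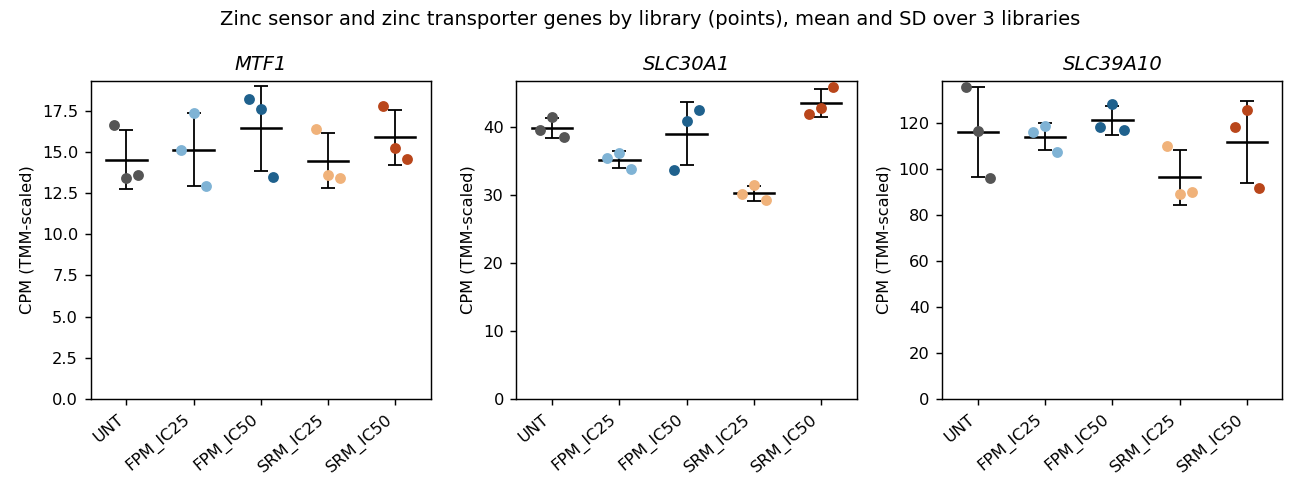
CPM of MTF1, SLC30A1 and SLC39A10 (y axis, from 0, a scale of its own per gene) by group, with 1 point per library and the mean ± SD of 3 libraries in black. SLC30A1 is lowest in the 3 SRM_IC25 libraries, at 29.3 to 31.5 CPM, and at 42.1 to 46.0 CPM in the 3 SRM_IC50 libraries; MTF1 and SLC39A10 overlap between all groups.

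**Figure D5:**
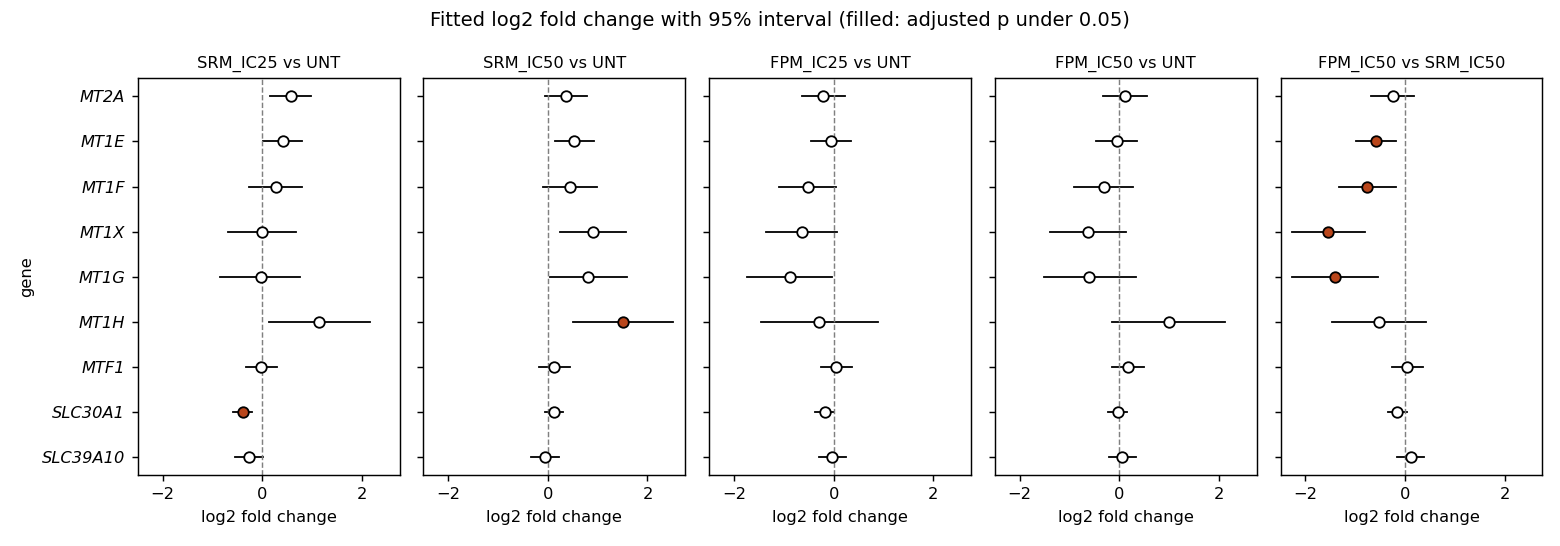
Log2 fold change (x axis) of the 9 genes (y axis) in 5 comparisons, with 95% intervals; filled points have an adjusted p under 0.05. MT1H is filled at SRM_IC50 against UNT, SLC30A1 at SRM_IC25 against UNT, and MT1E, MT1F, MT1X and MT1G, all below 0, at FPM_IC50 against SRM_IC50.

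Over the 15 libraries the 15 pairs of metallothioneins had Pearson correlations of log2 CPM from 0.29 to 0.85, with a median of 0.64. MT1G and MT1X, both called lower at FPM_IC50 than at SRM_IC50, had 0.85, and MT1G and MT1H had the lowest value. These libraries also share depth and composition, and the values are descriptions only. Among 15201 other genes ranked by their correlation with the mean of the 6 metallothioneins, the most alike were ALDOA, a glycolytic enzyme (r = 0.947), RTN4R, a receptor for myelin inhibitors (0.944), COTL1, an actin-binding protein (0.943), SPATC1L (0.941) and the spermidine synthase gene, whose symbol is also SRM (0.94). Over the 9 libraries outside FPM these 5 had r between 0.924 and 0.966. At SRM_IC50 against UNT, RTN4R (0.42, edgeR adjusted p 0.024) and SPATC1L (0.41, 0.00987) were called. ALDOA (0.0873), COTL1 (0.0615) and the spermidine synthase gene (0.135) were not. All 5 were picked for likeness over these same libraries, so their r and fold changes are not separate evidence.

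Metallothionein transcripts are short, so short coding genes were measured beside them. Over 1568 coding genes whose longest transcript lies in the range of the 6 metallothioneins (628 to 1727 bases), the median log2 fold change was -0.14 for FPM_IC25 and -0.19 for FPM_IC50 against UNT, where the medians of the 6 metallothioneins were -0.41 and -0.18. It was -0.21 for FPM_IC25 against SRM_IC25, -0.20 for FPM_IC50 against SRM_IC50, 0.11 for SRM_IC25 against UNT and 0.02 for SRM_IC50 against UNT. The corresponding medians of the 6 metallothioneins were -0.79, -0.67, 0.34 and 0.67. Within groups, SRM_IC50 replicate 3 and UNT replicate 3, each the highest of its group for summed metallothioneins, had short-gene medians of 0.35 and 0.28 above the mean over libraries. At FPM_IC25, where edgeR called no member against UNT, an analysis corrected for GC content and transcript length, added after seeing the data, called 2 (MT1E, adjusted p 0.0477, and MT1G, 0.0139). With that correction 3 members were called at SRM_IC50 against UNT, 3 between the SRM doses, 3 at FPM_IC25 against SRM_IC25 and 5 at FPM_IC50 against SRM_IC50.

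The wider zinc transporter families were counted in the same way. Of 11 listed zinc exporters (the ZnT family and TMEM163) 10 were tested; of 14 ZIP importers 11 were. Against UNT, edgeR called 0 of them at either FPM dose, where 14.2% and 13.6% of all tested genes were called; an unadjusted p under 0.05 was reached by 1 exporter and 2 importers at FPM_IC25 and by 2 of each at FPM_IC50, and DESeq2 and limma each called 1 importer at each dose. At SRM_IC25, 5 of the 21 were called, where 4.38% of all tested genes were, and 4 of these were exporters with lower levels: SLC30A1, SLC30A9 (118 ± 7.46 CPM in UNT, 86.4 ± 3.79 exposed, log2 fold change -0.45, SE 0.093), SLC30A6 (-0.35, SE 0.086) and SLC30A5 (-0.28, SE 0.073). The median over the 10 exporters was -0.23, against 0.02 for all tested genes. SLC39A13, a ZIP protein of the secretory pathway needed in connective tissue, was the 1 importer called, higher by 0.41 (SE 0.089). All 5 of these calls were lost with GC correction, where the log2 fold changes were -0.14, -0.22, -0.09, -0.06 and 0.18 in this order (edgeR adjusted p 0.592 to 0.908), and each was lost without UNT replicate 2 or 3 or SRM_IC25 replicate 2 or 3 (adjusted p up to 0.214).

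At SRM_IC50 against UNT, 1 exporter and 2 importers were called, 3 of the 21 tested (14.3%), which is no more than the 17.6% of all tested genes. SLC30A3, which loads zinc into synaptic vesicles in neurons, was at 0.497, 0.469 and 0.366 CPM in UNT and at 2.61, 1.88 and 1.67 CPM exposed, and rose by 2.22 log2 units (SE 0.43, edgeR adjusted p 0.00158). SLC39A14, a carrier of zinc, iron and manganese, was at 87.9, 83.7 and 73.2 CPM in UNT and at 119, 111 and 92.4 CPM exposed, and rose by 0.40 (SE 0.10, edgeR adjusted p 0.00994). SLC39A11 was at 20.0, 21.1 and 20.3 CPM in UNT and at 10.8, 10.3 and 10.7 CPM exposed, and fell by 0.95 (SE 0.10, edgeR adjusted p 7.77e-06). For each of these genes the exposed libraries did not overlap UNT. The SLC39A14 call was lost without UNT replicate 3 or SRM_IC50 replicate 1 (adjusted p of at most 0.0621), and the other 2 were kept without any 1 library.

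Between the SRM doses the same 3 genes were called in the same directions (SLC30A3 1.73, SE 0.40; SLC39A14 0.53, SE 0.10; SLC39A11 -0.92, SE 0.10), with SLC30A1, SLC30A6 (0.25, SE 0.086) and SLC30A9 (0.30, SE 0.093) higher and SLC39A13 (-0.36, SE 0.089) lower at the higher dose. In total 7 of the 21 tested transporters (33.3%) were called between the SRM doses, where 26.9% of all tested genes were. With GC correction the values of SLC30A6, SLC30A9 and SLC39A13 were 0.10, 0.15 and -0.17, and none of these 3 was called. At FPM_IC50 against SRM_IC50, SLC30A4 (1.14, SE 0.20), SLC39A11 (0.83, SE 0.11), SLC30A10 (0.59, SE 0.21) and SLC39A9 (0.41, SE 0.12) were higher in FPM, and SLC30A3 (-2.38, SE 0.47) and SLC39A14 (-0.48, SE 0.10) were lower. That was 6 of the 21 (28.6%), fewer than the 39.3% of all tested genes called. At FPM_IC25 against SRM_IC25 edgeR called only SLC39A9 in either family (0.45, SE 0.11). This was 1 of the 21 (4.76%), where 10.5% of all tested genes were called. DESeq2 also called SLC30A5 (0.21, adjusted p 0.0317), and limma on log2(FPKM + 1) called SLC30A5 (0.25, adjusted p 0.0029) and SLC30A1 (0.24, adjusted p 0.0322). The SLC30A10 call was lost without FPM_IC50 replicate 1 or 2 or SRM_IC50 replicate 2 or 3 (adjusted p up to 0.122), and that of SLC39A9 at the IC25 level without FPM_IC25 replicate 2 or SRM_IC25 replicate 3 (up to 0.076).

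Genes for other metals were counted against the same shares. Of 12 tested iron genes 3 were called at SRM_IC50 against UNT (25% against 17.6% of all tested genes): SLC40A1 (ferroportin, the cellular iron exporter) fell by 3.27 on the log2 scale (SE 0.15, 40.3 ± 1.34 to 4.14 ± 0.471 CPM), NCOA4, which directs ferritin to lysosomes, fell by 0.44 (SE 0.081), and ACO1, an iron-sensing aconitase, rose by 0.38 (SE 0.083). At FPM_IC50 SLC40A1 rose by 0.57 (SE 0.12, edgeR adjusted p 0.00303) and was the only iron gene called. Of 12 tested copper genes, CP (ceruloplasmin, the main copper protein of blood plasma) was the only one edgeR called against UNT, at FPM_IC25 (3.19, SE 0.37) and FPM_IC50 (3.36, SE 0.37), from 0.394 ± 0.234 CPM in UNT; DESeq2 also called ATP7B at FPM_IC50 (0.50, adjusted p 0.04) and SLC31A1 at SRM_IC50 (0.26, adjusted p 0.0253). Between the SRM doses edgeR called 5 iron and 4 copper genes, where 26.9% of all tested genes were called, among them SLC40A1 (-3.17), ACO1 (0.59), SLC25A28 (-0.49), ATP7B (-0.73), SCO2 (-0.65) and SLC31A1 (0.32). At FPM_IC50 against SRM_IC50 it called 4 iron and 3 copper genes, where 39.3% of all tested genes were, among them SLC40A1 (3.84), SLC25A28 (0.48), ACO1 (-0.43), CP (2.45), ATP7B (0.95) and SCO1 (-0.26). At SRM_IC25 against UNT edgeR, DESeq2 and limma called 0 of these iron and copper genes, and 3 iron genes and 1 copper gene had an unadjusted p under 0.05.

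Of 12 genes of metal and oxidant stress, GCLM, a subunit of the enzyme that starts glutathione synthesis, fell by 0.67 at SRM_IC50 against UNT (SE 0.11), SLC7A11, the cystine importer, rose by 0.37 (SE 0.11) and TXNRD1 rose by 0.24 (SE 0.079), the last lost without any 1 of 12 libraries (adjusted p up to 0.204) and SLC7A11 without UNT replicate 2 or 3 or SRM_IC50 replicate 1 or 2 (up to 0.109); HMOX1 and NQO1 were not called. That made 3 of the 12 called at SRM_IC50 against UNT, where 17.6% of all tested genes were. Between the SRM doses 5 were called, where 26.9% of all tested genes were. At FPM_IC50 against SRM_IC50, 7 were called, 2 higher and 5 lower in FPM, where 39.3% of all tested genes were. Among these were HMOX1 (0.38, edgeR adjusted p 0.0477) and NQO1 (-0.47, 0.0209), the first lost without any 1 of 9 libraries. Metallothionein genes also answer to glucocorticoids in many cells. Of 8 glucocorticoid-responsive genes at SRM_IC50, FKBP5 rose by 1.01 (SE 0.14) and NR3C1, the receptor, by 0.59 (SE 0.11), while SGK1 fell by 1.18 (SE 0.13). These 3 of the 8 were called against UNT, where 17.6% of all tested genes were. At FPM_IC50 against UNT, NR3C1 rose by 0.38 (edgeR adjusted p 0.0332) and TSC22D3 fell by 0.37 (0.0486), where 13.6% of all tested genes were called. These 2 calls were lost without any 1 of 6 and of 10 libraries. Between the SRM doses edgeR called 3 of the 8, where 26.9% of all tested genes were called. It called 4 at FPM_IC50 against SRM_IC50, where 39.3% were. Of these 4, KLF9 was lost without any 1 of 4 libraries. At SRM_IC25 and FPM_IC25 against UNT edgeR called 0 of the stress and glucocorticoid genes, where 4.38% and 14.2% of all tested genes were called. An unadjusted p under 0.05 was reached by 3 and 2 stress genes and by 1 and 0 glucocorticoid genes in that order. DESeq2 called 1 stress gene at SRM_IC25.

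Of the pluripotency, amnion and trophoblast, and simple epithelium markers, most calls were in comparisons that involve SRM_IC50. Elsewhere, 5 of 10 pluripotency markers were lower than in UNT at FPM_IC25, 4 at SRM_IC25 and 3 at FPM_IC50. Of all tested genes, 3.52%, 3.39% and 2.77% were called lower, in that order. The SRM_IC25 calls were lost with GC correction. So were POU5F1 (edgeR adjusted p 0.0579) and L1TD1 (0.088) at FPM_IC25. Of the FPM_IC25 calls only SOX2 and LIN28A were kept without any 1 library, and of the FPM_IC50 calls only SOX2 was. At FPM_IC50, 4 of 12 amnion and trophoblast markers were higher, where 10.8% of all tested genes were called higher. Of these 4 calls only CYP19A1 was kept without any 1 library. At FPM_IC25, 6 of 7 eye field and neural markers were lower and 4 of 8 mesenchyme markers higher. There 10.6% of all tested genes were called higher. Of the 4 mesenchyme calls only PRRX1 was kept without any 1 library, and of the 6 eye field and neural calls SIX6 and OTX2 were not kept. At SRM_IC50 against UNT, 7 of 10 pluripotency markers were higher, 12 of 12 amnion and trophoblast markers were lower and 8 of 8 simple epithelium markers were lower. Of 7 eye field and neural markers 5 were lower, and of 8 mesenchyme markers 2 were higher and 3 lower. Of all tested genes, 7.95% were called higher there and 9.6% lower. The summed pluripotency level was 1760 to 2010 CPM in UNT and 2620 to 3170 CPM at SRM_IC50; the amnion and trophoblast level was 1420 to 1660 CPM and 334 to 374 CPM, and the simple epithelium level 6580 to 8940 CPM and 2940 to 3950 CPM. Between the SRM doses, 9 pluripotency markers were higher at the higher dose and 12 amnion and trophoblast and 7 epithelium markers were lower. Of all tested genes, 13.7% were called higher and 13.2% lower at the higher dose. At FPM_IC50 against SRM_IC50, which called 4 members, 8 pluripotency markers were lower in FPM. All 12 amnion and trophoblast and 8 epithelium markers were higher in FPM. Of all tested genes, 16.2% were called lower in FPM and 23.2% higher. No marker of the pluripotency, amnion and trophoblast, and epithelium lists was at 0 throughout a group. In these bulk libraries, fewer cells of a type and less RNA per cell cannot be told apart, and the part of cell makeup in the metallothionein and zinc transporter values was not tested. Of 7 osteoblast markers, which check the osteogenic label, 5 passed the filter. Their summed level, over all 7, was 421 to 534 CPM in UNT and 586 to 720 CPM at SRM_IC50. There ALPL, the tissue-nonspecific alkaline phosphatase, which is not particular to bone, was higher than in UNT by 0.87 (SE 0.088). DLX5, a bone transcription factor, was lower (-1.14, SE 0.11). At FPM_IC25 against UNT, ALPL was the only osteoblast marker called, and it was lower (-0.37, edgeR adjusted p 0.00726). That call was lost with limma. Between the SRM doses ALPL (0.86) and SPP1 (0.73) were higher and DLX5 (-1.31) and RUNX2 (-0.73, not called by limma on log2(FPKM + 1)) lower at the higher dose. IBSP, a bone matrix protein gene, was at 0 in all FPM_IC50, SRM_IC25 and SRM_IC50 libraries.

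Total counts per library ranged from 9.34 to 58.2 M (M, mega), and a floor of 3 counts was 0.0504 to 0.308 CPM, which covers counting error only. The 6 FPM libraries stood apart, with 0.942 to 1.5% of counts in antisense genes against 0.274 to 0.319% in the other 9. This difference cannot be told apart from the particle in any comparison of FPM with UNT or SRM. The count of members called was the same in all 10 tests when the scaling left out every gene near one on the other strand (closer than 5 kb). That setting changes only the scaling factors, so it cannot show whether the antisense difference affects the calls. Whether replicates came from separate cultures is not in the labels, so p-values measure the spread between these libraries, which may be technical.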

How the data were processed

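RNA was measured in 15 libraries of differentiating H9 cells, grouped by title. Per the submitters' processing notes, the authors used FastQC 0.11.7, HISAT2 2.2.1 with GRCh38, SAMtools 1.10, featureCounts from Subread 2.0.15, and DESeq2; for the counting, the annotation release, strand setting and handling of multi-mapping reads are not given in the sources read. The deposited table holds raw whole-number counts per gene. The deposited FPKM values equal those counts divided by gene length and total count.

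The test was edgeR 4.0.16 (R 4.3.3) on these counts, with TMM scaling, filterByExpr (minimum count 10), 1 robust quasi-likelihood fit of 5 group means to all 15 libraries, an F test per contrast and Benjamini-Hochberg adjustment at 0.05 over 19012 genes. Each dose was set against UNT, doses within a particle, particles at 1 inhibitory level, the difference of dose steps, and all groups at once. The script was tested on simulated counts. Symbols came from a list of gene names, coordinates from GENCODE release 29 and promoters from RefSeq. Replicate pairs had Pearson correlations of 0.982 to 0.994 and differed by more than sampling noise. Same-numbered libraries correlated above 0.1 in every pair only between the FPM doses, so the replicate number was not used as a block except as an alternative.

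The members, gene lists and tests were chosen with earlier results of these data known. Named genes follow a rule: the 9 members, any called zinc transporter, up to 3 called genes of largest fold per other list and comparison, and the 5 genes most like the metallothioneins (mean of at least 1 CPM). Some cell type markers are named outside this rule. Alternatives were DESeq2 1.42.0, its size factors, a replicate block, no filter, limma 3.58.1 on log2(FPKM + 1) and log2(FPKM + 0.1), only the groups compared, no FPM libraries, another scaling set, GC and length corrections, thinning to 9340745 counts, and leaving out each library.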

Additional observations from a re-analysis of the deposited data

How the results depend on the processing

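No result changed direction where it was called, over 13 other analyses and the omission of each of the 15 libraries. Counts of members called, of 9, follow with the count in the report first. For SRM_IC25 against UNT (1), DESeq2 and the replicate block gave 2, while GC correction, GC and length correction, limma on log2(FPKM + 1) without a filter, only the 2 groups compared, thinning and a fit without FPM gave 0. No expression filter gave 1, with MT2A (edgeR adjusted p 0.0176) in place of SLC30A1 (0.0642). For SRM_IC50 against UNT (1), DESeq2 gave 2, MT1E and MT1X, with MT1H lost (adjusted p 0.0534). Limma on log2(FPKM + 1) or log2(FPKM + 0.1) also gave 2, with MT1E added. No expression filter gave 1, with MT1X (edgeR adjusted p 0.00496) in place of MT1H (0.0751). The block and the GC and length correction gave 3, and unfiltered limma, only the 2 groups compared, thinning and a fit without FPM gave 0. For SRM_IC50 against SRM_IC25 (2), limma on log2(FPKM + 0.1) and unfiltered limma gave 1, with MT1X lost. Thinning and only the 2 groups compared gave 2, with MT1G (edgeR adjusted p 0.015 and 0.0473) in place of MT1X (0.406 and 0.0513). For FPM_IC25 against SRM_IC25 (1), DESeq2, both filtered limma fits, no expression filter and only the 2 groups compared gave 2, GC and length correction gave 3, the block gave 4 and unfiltered limma 0. For FPM_IC25 against UNT (0), GC and length correction gave 2 and thinning 1. For FPM_IC50 against SRM_IC50 (4), thinning gave 1, and limma on log2(FPKM + 0.1) (MT1G lost, adjusted p 0.0507), unfiltered limma (MT1F lost, 0.0792) and only the 2 groups compared (MT1F lost, 0.0763) gave 3; GC and transcript length correction gave 5, adding MT2A (0.0168). For the difference of dose steps (0), DESeq2, both filtered limma fits and the block gave 1. Over any of 5 groups (7), unfiltered limma and thinning gave 3. Leaving out 1 library gave 0 to 1 for SRM_IC25 against UNT, 0 to 2 for SRM_IC50 against UNT, 1 to 3 between the SRM doses, 0 to 3 for FPM_IC25 against SRM_IC25, 2 to 4 for FPM_IC50 against SRM_IC50, 0 to 1 for the difference of dose steps, 4 to 7 over any group and 0 for the other 3. The cause of these changes was not tested. MT1H was not tested in every analysis, being under the filter in some. With the block, the SRM doses gave 3, FPM_IC50 against SRM_IC50 gave 4 and any of 5 groups 8; pairs with the same number had correlations of -0.14 to 0.438, 16 of 30 above 0.1, and 11 of 15 libraries correlated best with their own number, a hint from the data and not the design. Between the FPM doses all 3 such pairs were above 0.1 (0.182 to 0.261), and the block called 0 there as well. Depth limits MT1H, MT1G and MT1X most, at 1 to 116 counts.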
